A study of Mus musculus with 203 samples.

Results

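The genes described here build, move or switch on the axoneme, the microtubule core of the motile cilium. They were chosen by a rule on symbols, as the mouse genes named Dnah, Dnal, Dnali, Dnaaf, Cfap, Rsph, Tekt or Drc with a number, together with Ccdc39, Ccdc40, Foxj1 and Tppp3. Of 43346 identifiers in the gene table, 67 met the rule. They comprise 5 heavy chains placed in outer dynein arms, 7 heavy chains placed in inner arms or named as their relatives, 3 dynein light or intermediate chains, 4 dynein arm assembly factors, 10 radial spoke genes, 5 genes of the nexin link and the axonemal ruler, 5 tektins, Foxj1 and Tppp3, and 26 other Cfap genes. Dnai1 and Dnai2 are entered in the annotation as Dnaic1 and Dnaic2 and so lie outside the rule, and their values are given beside it. Cfap99 was not analysed here. In each library 61 of the 67 genes had at least 10 counts, and the median gene had 452 counts in a median library. Rsph6a and Dnah14 reached 10 counts in no library and were not tested. Dnah17 reached 10 counts in 34 libraries and was not tested at 3 weeks, which left 64 genes tested at 3 weeks and 65 at 11 weeks. It was also among the 65 genes tested for differences between the times.

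Libraries were made from the airways and the parenchyma of lungs of female BALB/c mice, aged 18 to 20 weeks per the labels, after the tissues had been separated by dissection. At 3 weeks, mice had received house dust mite extract (HDM) intranasally on 5 days per week, and controls had received phosphate-buffered saline (PBS). The groups held 11 PBS and 10 HDM airway libraries, and 12 PBS and 10 HDM parenchyma libraries. At 11 weeks there were 16 groups of 10 libraries, in which mice had received HDM, 3 times per week from week 4, or PBS. In these groups mice breathed either normal air (AIR) or cigarette smoke (CS), given 2 times per day on 5 days per week for 8 weeks, and received either no further treatment or dexamethasone (DEX), a glucocorticoid, in week 11. The 11 week HDM groups were entered here with HDM on 5 days per week in the first 3 weeks as well. The labels do not say outright that the 11 week HDM mice had the same first 3 weeks of HDM. Library codes are unique and do not tie the airway and the parenchyma of a mouse together, so libraries were treated as independent and p-values measure the spread between libraries.

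Motile cilia beat on multiciliated cells of the airway epithelium and carry mucus out of the lung. In the axoneme, outer and inner dynein arms slide neighbouring microtubule doublets past each other, radial spokes and nexin links turn the sliding into a beat, tektins run inside the doublet wall, and dynein arms are preassembled in the cytoplasm by a separate set of factors before they enter the cilium. FOXJ1, a forkhead transcription factor, and the RFX factors, which bind X-box motifs, are the known activators of these genes, and loss of many of them causes primary ciliary dyskinesia in people.

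Since many members moved together, the sequences before their starts were searched for the motifs of both kinds of factor. RefSeq transcript starts on GRCm38.p6 were on hand for 53 of the 67 genes, in 60 windows reaching 250 bases upstream. An X-box was searched on both strands as GTNNCC and GGNAAC with 0 to 3 bases between them, and a forkhead motif as GTAAACA. The X-box letters stood in 5 of the 60 windows (8.33%) and in 1.92% of 32851 windows of all genes, and the forkhead letters in 4 (6.67%) and in 3.17%. These are descriptions of letters in a window. The 5 genes with X-box letters follow, with the motif in capitals, because they are the members that hold these letters. Cfap298 and Dnaaf5 act in dynein arm assembly, Cfap206 lies near the radial spokes and Tekt4 is a tektin.

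Cfap206, chr4:34730207-34730274, minus strand: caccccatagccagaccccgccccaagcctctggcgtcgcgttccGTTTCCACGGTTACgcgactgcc
Cfap298, chr16:90934859-90934963, minus strand: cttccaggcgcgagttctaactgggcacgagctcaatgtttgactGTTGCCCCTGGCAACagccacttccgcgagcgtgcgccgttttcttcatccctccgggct
Cfap298, chr16:90934979-90935082, minus strand: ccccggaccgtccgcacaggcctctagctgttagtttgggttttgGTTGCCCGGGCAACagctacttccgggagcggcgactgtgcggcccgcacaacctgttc
Cfap58, chr19:47937608-47937710, plus strand: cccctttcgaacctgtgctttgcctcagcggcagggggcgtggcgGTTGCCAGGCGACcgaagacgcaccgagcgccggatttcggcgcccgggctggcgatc
Dnaaf5, chr5:139150172-139150234, plus strand: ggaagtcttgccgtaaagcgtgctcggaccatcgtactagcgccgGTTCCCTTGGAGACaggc
Tekt4, chr17:25471385-25471488, plus strand: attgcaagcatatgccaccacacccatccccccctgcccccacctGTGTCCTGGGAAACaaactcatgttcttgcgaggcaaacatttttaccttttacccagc

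The forkhead letters also stood before Cfap20 and Dnah17. They are shown in capitals for Cfap43 and Tekt3. In the 11 week HDM AIR parenchyma Tekt3 had a log2FC of 0.83 ± 0.26 (limma adjusted p = 0.0032) and Cfap43 one of -0.20 ± 0.10 (adjusted p = 0.069). Without library X90, described below, that of Tekt3 was 0.72, and Tekt3 had a median of only 41 counts. Dnah17 fell past the threshold in this parenchyma, and Cfap20 was not among the members that fell. With HDM, Tekt3 fell in both tissues at 3 weeks, and Tekt3 and Cfap43 fell in the 11 week airway. A link between these letters and the changes was not tested.

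Cfap43, chr19:47837365-47837461, minus strand: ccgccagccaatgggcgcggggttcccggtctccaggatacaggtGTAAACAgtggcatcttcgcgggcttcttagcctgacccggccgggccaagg
Tekt3, chr11:63061440-63061536, plus strand: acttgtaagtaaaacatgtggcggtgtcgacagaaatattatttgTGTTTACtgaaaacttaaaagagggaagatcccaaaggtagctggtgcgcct

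Total counts ran from 13003154 to 40240733 per library (median 28090684). Values below are CPM, the counts scaled to a common library total and adjusted by the trimmed mean of M values (TMM), and a log2FC is a difference of log2 values with its standard error (SE) from limma-voom, called at a Benjamini-Hochberg adjusted p under 0.05 over all genes tested. Dissection did not give pure tissues. A list of club cell genes summed to a median of 63840 CPM in PBS AIR airways and 25500 CPM in PBS AIR parenchyma, and a list of alveolar type II genes to 14820 and 25480 CPM. Of the libraries that stood apart, X90 of the HDM AIR parenchyma, X63 of the 3 week HDM airway, X81 of the 3 week PBS airway and X32 of the HDM AIR DEX parenchyma, X90 and X63 moved results below, and values without them are given there.

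In PBS mice, axoneme genes were higher in airways than in parenchyma. At 11 weeks, 61 of the 65 genes tested were higher and 1 lower, where 26.3% of all genes were higher and 30.1% lower. The median log2FC of the members was 2.06 against -0.03 over all genes. At 3 weeks 59 of 64 were higher and 2 lower (24.3% and 31.7% of all genes), with a median of 1.39. In 57 of the 65 members all 10 PBS AIR airway libraries lay above all 10 parenchyma libraries, as did 10.3% of all genes.

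Per kilobase of exon, which allows genes to be compared with each other, the most abundant member was Tppp3, encoding a tubulin polymerization-promoting protein found in ciliated cells. Its level was 217.3, 299.8 and 396.0 CPM per kb (lowest, median and highest library) in PBS AIR airways and 185.7, 215.2 and 268.0 in PBS AIR parenchyma. Foxj1 came next in both tissues, with medians of 73.8 and 18.5 CPM per kb, and the radial spoke gene Rsph1 followed at 57.8 in airways. The ranges of Tppp3 and Foxj1 did not overlap in either tissue.

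Foxj1 was 122.2, 193.5 and 315.3 CPM in PBS AIR airways and 32.6, 48.5 and 58.6 CPM in PBS AIR parenchyma. Every airway library lay above every parenchyma library (log2FC 2.17 ± 0.16 SE, adjusted p = 1.4e-24). For Dnah5, the outer arm heavy chain mutated in many cases of primary ciliary dyskinesia, the airway excess was 2.40 ± 0.18 (adjusted p = 1.4e-24). The largest excess was that of Cfap73 at 2.60 ± 0.22 (adjusted p = 1.2e-21).

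The excess was smaller in some members. In 13 genes the airway log2FC was under 1 at 11 weeks, of which 9 were still higher in airways and 1 lower: Cfap20, Cfap36, Cfap43, Cfap97, Dnaaf2, Dnaaf5, Dnah17, Dnah8, Dnal1, Dnal4, Rsph3b, Tekt5 and Tppp3. Tppp3 was only slightly higher in airways (0.46 ± 0.12, adjusted p = 0.0003). Tekt5 was the one member lower there, at 0.573, 2.03 and 3.24 CPM in airways and 3.48, 4.06 and 4.42 CPM in parenchyma (log2FC -1.23 ± 0.22, adjusted p = 3.5e-07), with no overlap. In that direction 7.07% of all genes separated. The other 52 genes had a median airway excess of 2.13.

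**Figure D1:**
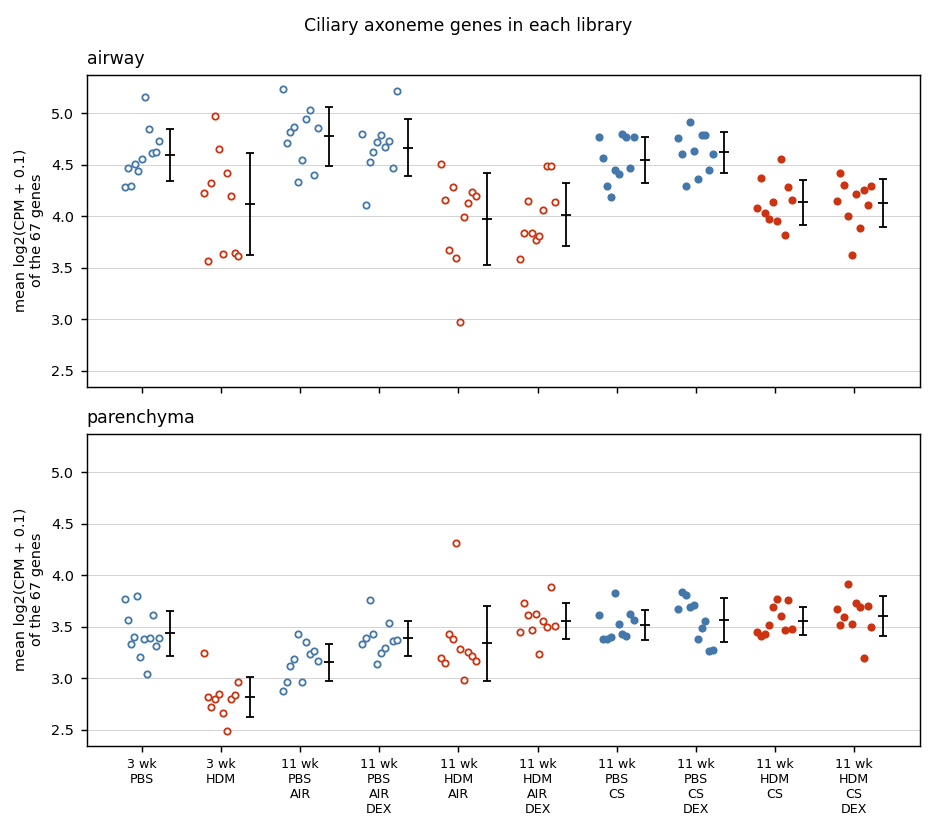
Mean log2(CPM + 0.1) of the axoneme genes in each library (points), by tissue and group, with blue for PBS, red for HDM, filled points for cigarette smoke and bars for mean ± SD of 10 to 12 libraries. Airway groups stand above parenchyma groups, HDM airways stand below PBS airways at both times, and HDM parenchyma stands below PBS parenchyma at 3 weeks only, with X90 as the single high point at 4.316.

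After 3 weeks of HDM, axoneme genes were lower in the airways. Of the 64 genes tested, 48 fell and 1 rose, where 40.5% of all genes fell and 34.1% rose. Their median log2FC was -0.50, against -0.07 over all genes. The summed level of the members went from 2519, 3131 and 4670 CPM (lowest, median and highest) in PBS airways to 1369, 2209 and 4100 CPM in HDM airways. These ranges overlapped, and the highest HDM value was that of X63, without which 50 genes fell and 1 rose. In bulk tissue, fewer ciliated cells and less of these RNAs per ciliated cell cannot be told apart, and neither can a larger share of RNA from other cells.

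By role, the falls in the 3 week airway were most complete in the tektins and the radial spokes. All 5 tektins fell, and Tekt2, a part of the doublet wall, went from 12.9, 17.9 and 25.9 CPM to 4.91, 8.21 and 11.1 CPM (log2FC -1.30 ± 0.12, limma adjusted p = 1.1e-12). All HDM libraries lay below all PBS libraries for Tekt2. The groups separated in this way in 3 members, Tekt2, Tppp3 and Cfap20, and in 9.15% of all genes. Of 9 radial spoke genes 8 fell, with the largest log2FC for Rsph9, a spoke head protein, at -1.04 ± 0.13 (adjusted p = 2.9e-09). In the nexin link and ruler group 4 of 5 fell, and Ccdc40, which forms the ruler with Ccdc39, did not pass (-0.29 ± 0.16, adjusted p = 0.086).

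Dynein genes differed among themselves in the 3 week airway. Of the 4 outer arm heavy chains tested 3 fell, and Dnah5 went from 111.03, 150.8 and 254.3 CPM to 45.9, 84.1 and 169.9 CPM (log2FC -0.94 ± 0.19, adjusted p = 2.1e-05). In 7 of 10 HDM libraries Dnah5 lay below every PBS library. The inner arm heavy chains had log2FC values from -0.49 to -0.12, and 4 of 6 fell. Dnali1, an inner arm light intermediate chain, fell by 0.83 ± 0.15 on the log2 scale (adjusted p = 4.7e-06). Dnaic1 and Dnaic2, the outer arm intermediate chains outside the rule, both had a log2FC of -0.65. Of the 4 assembly factors, Dnaaf1 and Dnaaf2 fell, and Dnaaf3 (-0.08 ± 0.12) and Dnaaf5 (0.18 ± 0.10) did not pass. Of the genes whose X-box windows are shown above, Cfap206 (-0.75 ± 0.18), Cfap298 (-0.59 ± 0.14), Cfap58 (-0.85 ± 0.15) and Tekt4 (-0.92 ± 0.16) fell here, and all 5 fell in the 11 week airway, Dnaaf5 by 0.22 on the log2 scale (adjusted p = 0.006).

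The other Cfap genes, a mixed group of doublet, central apparatus and assembly proteins, fell in 19 of 26 cases in the 3 week airway (median log2FC -0.55). Cfap161, a protein inside the doublet, went from 23.9, 33.4 and 53.9 CPM to 8.05, 15.9 and 29.6 CPM (log2FC -1.25 ± 0.16, adjusted p = 5.6e-09), and 8 of 10 HDM libraries lay below every PBS library. Cfap221, of the central apparatus, had a log2FC of -1.15 ± 0.19 (adjusted p = 6.4e-07).

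The member that rose in the 3 week airway was Dnah8, a heavy chain best known from sperm. It went from 9.54, 14.1 and 22.3 CPM to 15.4, 22.3 and 30.9 CPM (log2FC 0.56 ± 0.12, adjusted p = 0.00011). In 5 of 10 HDM libraries it lay above every PBS library, so the groups overlapped. Dnah8 overlaps Glo1 on the opposite strand, and because no source used here gives the strand setting, their counts could be shared.

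Foxj1 did not pass the test in either tissue at 3 weeks. In airways it was 99.6, 145.4 and 238.2 CPM in PBS and 88.7, 168.4 and 340.9 CPM in HDM libraries (log2FC 0.03 ± 0.18, adjusted p = 0.89), and in parenchyma 28.6, 41.8 and 70.2 CPM and 43.9, 49.5 and 69.5 CPM (0.17 ± 0.17, adjusted p = 0.37). The ranges overlapped widely in both tissues. Of 12 other regulators of multiciliated cell formation, among them the RFX genes, 2 rose and 6 fell in the airway.

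In the 3 week parenchyma 49 of 64 members fell and none rose by limma, where 44.3% of all genes fell and 33.4% rose. At an unadjusted p under 0.05, 0 members rose by limma, 1 by edgeR and 2 by DESeq2. The median log2FC was -0.82, against -0.13 over all genes, and 12 members had a log2FC of -1 or below. The summed level went from 1317, 1498 and 1915 CPM in PBS parenchyma to 739.9, 871.9 and 1153 CPM in HDM parenchyma, with no overlap. This separation rested on Tppp3, the most abundant member. With Tppp3 left out of the sum, the ranges of the groups overlapped.

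The largest fall in the parenchyma was that of Tppp3, from 348.8, 400.3 and 567.7 CPM to 97.2, 120.4 and 134.6 CPM (log2FC -1.87 ± 0.14, adjusted p = 4.5e-16). Its share of the summed level of all members went from a median of 27.1% to 13.9%. Cfap221 (-1.48 ± 0.27), Tekt5 (-1.36 ± 0.21), Cfap100 (-1.35 ± 0.26) and Tekt2 (-1.32 ± 0.16) followed. The groups did not overlap in 10 members, and 19.4% of all genes separated in that direction. These 10 were Cfap126, Cfap157, Cfap20, Dnali1, Rsph10b, Rsph3b, Rsph9, Tekt2, Tekt5 and Tppp3.

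All 6 inner arm heavy chains tested fell in the 3 week parenchyma, within a narrow range of log2FC from -0.89 to -0.68. Dnah5 went from 30.9, 51.1 and 84.2 CPM to 14.6, 22.5 and 38.4 CPM (-1.25 ± 0.20, adjusted p = 2.4e-07), and 9 of 10 HDM libraries lay below every PBS library. The 5 tektins fell here too, as did 7 of 9 radial spoke genes. Of the assembly factors only Dnaaf2 passed (-0.22 ± 0.07, adjusted p = 0.0067), and Dnaaf3 (0.25 ± 0.17) and Dnaaf5 (0.24 ± 0.12) had positive values that did not. Rsph3a and Rsph3b are near-identical copies whose reads the quantification could have split, and their log2FC values in this tissue were 0.15 ± 0.14 and -0.57 ± 0.10.

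Whether HDM acted differently in the tissues was tested as airway log2FC less parenchyma log2FC. At 3 weeks 4 members passed, where 10.8% of all genes were higher and 6.44% lower by this test. Tppp3 (0.65), Dnah8 (0.63) and Cfap97 (0.21) had the higher value in the airway and Rsph3a (-0.55) the lower. Without X63, 2 members passed.

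Markers of other cell types moved in the same libraries. A list of 15 leukocyte genes summed to 458.5 to 893.6 CPM in PBS airways and 1100 to 2896 CPM in HDM airways, and to 588.3 to 805.8 and 2507 to 3396 CPM in parenchyma. All 15 rose in both tissues. Club cell genes summed to 36290 to 97600 CPM in PBS airways and 16100 to 37060 CPM in HDM airways, and 8 of 10 fell. A list of 12 genes shared by all epithelial cells, such as Epcam and Cdh1, summed to 1275 to 1764 and 1130 to 1499 CPM, with 2 higher and 4 lower. Cardiac muscle genes, which mark pulmonary veins, went from 368.1 to 5558 CPM down to 47.74 to 1137 CPM in airways. The part of these lists in the results was not tested.

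Other genes of the cilium were read beside the members. In the 3 week airway, 6 of 6 outer arm docking genes, 8 of 9 central apparatus genes, 24 of 26 further motile cilium genes and 18 of 25 intraflagellar transport genes fell, and in parenchyma 5 of 6, 9 of 9, 22 of 26 and 16 of 25 fell. Intraflagellar transport genes, which also serve primary cilia of other cells, had medians of -0.41 and -0.44. Of 14 further genes of ciliated cells 12 fell in each tissue, with medians of -1.04 and -1.06.

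**Figure D2:**
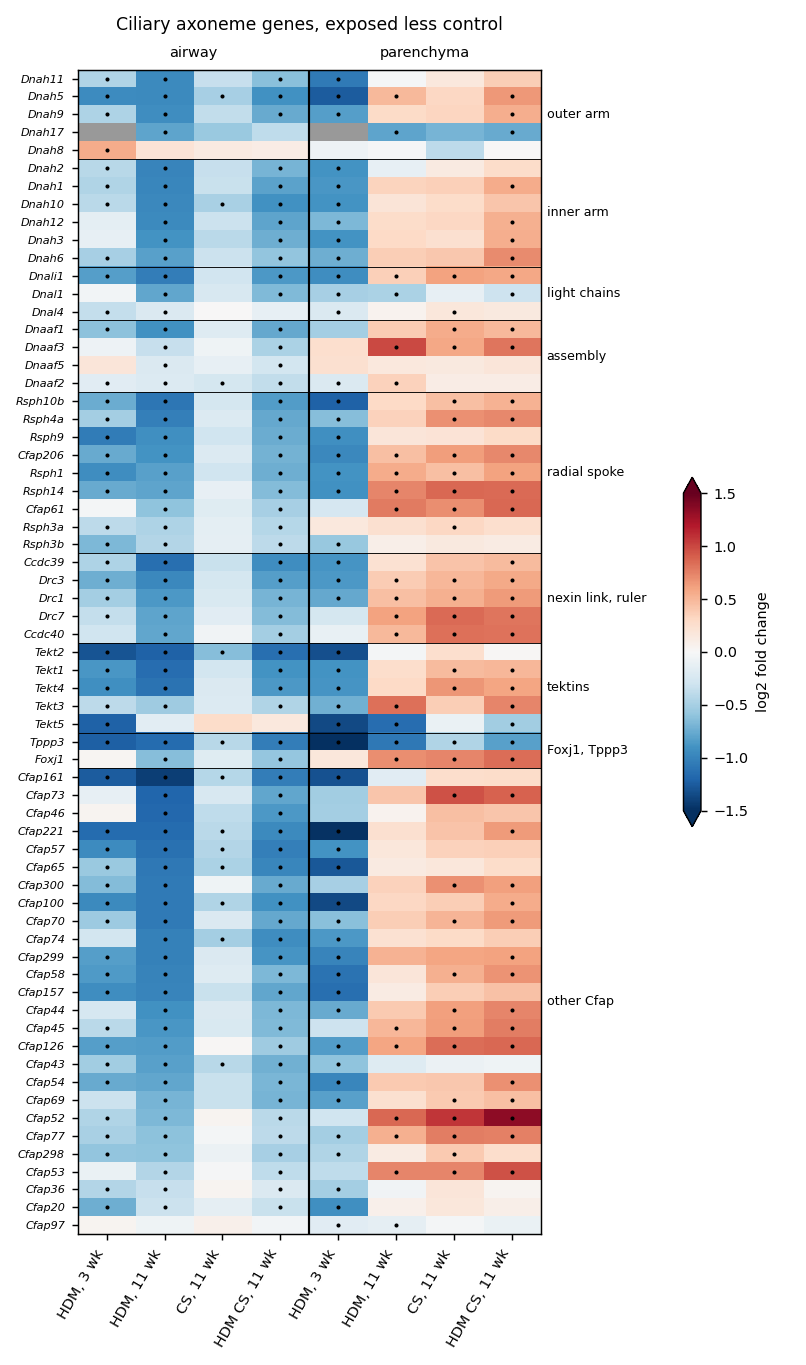
Log2FC of 65 axoneme genes (rows, by role) in 8 comparisons with PBS controls (columns), with blue for lower and red for higher, a dot for an adjusted p under 0.05 and grey for genes not tested. Airway columns under HDM are blue at both times, and the parenchyma column under HDM is blue at 3 weeks and mostly pale red at 11 weeks.

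At 11 weeks, axoneme genes fell in the airways of HDM AIR mice almost without exception. Of 65 members tested 62 fell and none rose, where 29.8% of all genes fell and 31.3% rose. At an unadjusted p under 0.05 by limma, edgeR and DESeq2, 62, 61 and 63 fell and none rose. The median log2FC was -0.90 against 0.00 over all genes, and 20 members had a log2FC of -1 or below. The summed level was 2632, 3626 and 4909 CPM in PBS AIR and 992.6, 2138 and 2835 CPM in HDM AIR airways, which overlapped slightly. The 3 genes that did not pass were Cfap97 (-0.07 ± 0.05), Dnah8 (0.21 ± 0.18) and Tekt5 (-0.16 ± 0.25).

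The largest falls were those of Cfap161, from 23.5, 37.9 and 53.7 CPM to 5.97, 15.1 and 21.002 CPM (log2FC -1.41 ± 0.14, adjusted p = 1e-17), and of Tekt2, from 13.3, 17.5 and 19.5 CPM to 3.59, 8.42 and 9.39 CPM (-1.21 ± 0.11, adjusted p = 2.1e-18). Both separated completely. Cfap73 (-1.19 ± 0.17), Cfap46 (-1.18 ± 0.19) and Tppp3 (-1.15 ± 0.11) followed. In 7 members the groups did not overlap, namely Cfap161, Cfap43, Cfap73, Dnal1, Rsph10b, Tekt2 and Tppp3, and 6.03% of all genes separated in that direction.

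The inner arm heavy chains all fell in the 11 week airway, with log2FC values from -0.99 to -0.81. Of the outer arm chains, Dnah5 (-0.95 ± 0.17, adjusted p = 7.9e-07), Dnah9 (-0.94 ± 0.17) and Dnah11 (-0.96 ± 0.16) fell alike, and so did Dnah17 (-0.80 ± 0.32, adjusted p = 0.025), at a highest level of 0.434 CPM. Dnaic1 and Dnaic2 both had a log2FC of -0.94. All 9 radial spoke genes and all 5 nexin link and ruler genes fell, led by Rsph10b (-1.08 ± 0.14) and Ccdc39 (-1.14 ± 0.16). The assembly factors ranged from -0.90 for Dnaaf1, near the median of all members, to -0.21 for Dnaaf2. Dnaaf3 shares its strand and position with Tnni3, a cardiac troponin gene, so part of its counts could belong there.

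At 11 weeks Foxj1 fell in the airways, from 122.2, 193.5 and 315.3 CPM to 48.6, 148.7 and 237.8 CPM (log2FC -0.64 ± 0.16, adjusted p = 0.00031). In 4 of 10 HDM AIR libraries it lay below every PBS AIR library. The test of the difference (HDM log2FC at 11 weeks less that at 3 weeks) passed for 19 members in the lower and 2 in the higher direction, where 13.9% and 14.5% of all genes did. Cfap46 (-1.29), Cfap73 (-1.13) and Dnah12 (-0.87) were lower, and Tekt5 (1.00) was higher. This rests partly on X63, without which 9 were lower and 1 higher, and with sample quality weights 5 were lower and 2 higher.

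In the 11 week HDM AIR airways the leukocyte list summed to 1614 to 2432 CPM against 448.4 to 844 CPM in PBS AIR, the club cell list to 12520 to 34050 against 46240 to 72590 CPM, smooth muscle genes to 354.4 to 782.9 against 731.8 to 2180 CPM, and the shared epithelial list to 1074 to 1473 against 1181 to 1857 CPM. The alveolar type II list was 15070 to 28510 against 7528 to 24880 CPM. The leukocyte list was higher and the club cell list lower without overlap, and the ranges of the other lists overlapped. The part of these lists was not tested.

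In the parenchyma under the same treatment, 19 of 65 members were higher and 5 lower than in PBS AIR, where 32.6% of all genes were higher and 26.9% lower, so the share of members that passed upwards (19 of 65) was near the background. The median log2FC was 0.30 against 0.05 over all genes. Library X90 moved this count. Its summed level was 2412 CPM, where the other 9 libraries ran from 974.7 to 1331 CPM, and its club cell list was at 29980 CPM, the highest of its group. Without X90, 9 members were higher and 6 lower, with a median of 0.16. By edgeR, with X90 kept, 35 were higher and 4 lower.

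The rises were led by Dnaaf3, from 3.62, 5.38 and 7.05 CPM to 6.51, 9.51 and 17.5 CPM (log2FC 0.99 ± 0.17, adjusted p = 2.9e-07), with 9 of 10 HDM AIR libraries above every PBS AIR library. Cfap52, inside the doublet (0.86 ± 0.23), Tekt3 (0.83 ± 0.26), Cfap61, near the radial spokes (0.78 ± 0.21), and Cfap53 (0.74 ± 0.23) followed. Tekt3 was the one member with all HDM AIR libraries above all PBS AIR libraries, and 11.8% of all genes separated in that direction. Foxj1 went from 32.6, 48.5 and 58.6 CPM to 44.6, 70.5 and 157.03 CPM (0.70 ± 0.15, adjusted p = 3.9e-05), and 7 of 10 libraries lay above every control. Dnah5 was 23.2, 31.98 and 39.04 CPM in PBS AIR and 24.2, 40.5 and 101.9 CPM in HDM AIR (0.48 ± 0.17, adjusted p = 0.013). The highest values of Foxj1 and Dnah5 were those of X90. Without it Dnah5 did not pass (0.34, adjusted p = 0.082), and the log2FC was 0.89 for Dnaaf3, 0.70 for Cfap52, 0.72 for Tekt3, 0.63 for Cfap61, 0.55 for Cfap53 and 0.57 for Foxj1, all of which passed.

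The 5 members that fell in the 11 week parenchyma were Tekt5 (-1.14 ± 0.22, adjusted p = 1.8e-06), Tppp3 (-1.07 ± 0.11, adjusted p = 1.1e-16), Dnah17 (-0.79 ± 0.31), Dnal1, an outer arm light chain (-0.48 ± 0.11), and Cfap97 (-0.14 ± 0.05). All 5 also passed without X90.

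The HDM effect differed between tissues in most members at 11 weeks. Airway log2FC less parenchyma log2FC was lower for 58 members and higher for 1, Tekt5, where 14.9% and 12.7% of all genes passed, and its median was -1.25. Without X90 the counts were the same, 58 and 1. In the parenchyma, the HDM effect at 11 weeks less that at 3 weeks was higher for 51 members, where 21.5% of all genes were higher and 20.9% lower, and for 42 without X90. Dnah5 had the largest such difference (1.61 ± 0.26, adjusted p = 4.8e-08), ahead of Cfap221 (1.59), Cfap100 (1.53), Rsph14 (1.51) and Tekt3 (1.42). PBS levels enter this difference, and they too differed between the times. The PBS parenchyma median of Dnah5, given above, was lower at 11 than at 3 weeks. That of Rsph1 was 24.1 CPM per kb at 3 weeks and 13.1 at 11 weeks, and that of Cfap126 18.5 and 9.07. Foxj1 went the other way, at 15.9 and 18.5. The times were separate cohorts that differed in length and schedule of exposure, which cannot be told apart.

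Leukocyte genes were raised in the 11 week parenchyma too, at 1735 to 2804 CPM against 547.1 to 753.2 CPM, while club cell genes were at 12500 to 29980 against 18910 to 32990 CPM. Basal cell genes, listed for a cell type of larger airways, summed to 6.756 to 16.44 CPM here and 2.337 to 3.933 CPM in PBS AIR parenchyma. What these lists mark under HDM, and their part in the results, was not tested.

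**Figure D3:**
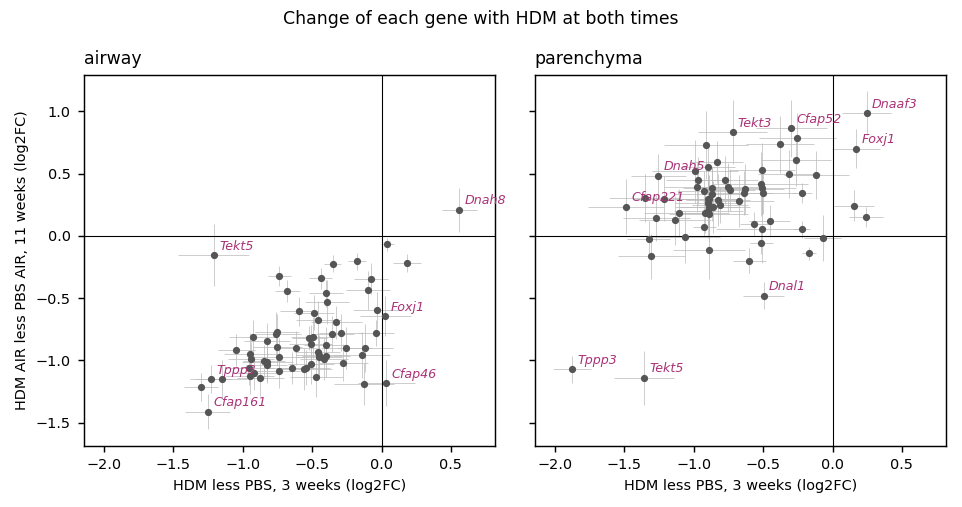
Log2FC of HDM against PBS at 3 weeks (x axis) and of HDM AIR against PBS AIR at 11 weeks (y axis) for 64 axoneme genes in airways (left) and parenchyma (right), with bars for SE. In airways most points lie in the lower left, and in parenchyma most lie in the upper left, negative at 3 weeks and above 0 at 11 weeks, with Tppp3 and Tekt5 negative at both. In parenchyma 11 of the 64 genes passed as lower at 3 weeks and higher at 11 weeks, and 4 as lower at both, with X90 kept.

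Cigarette smoke alone was read in both tissues. In PBS CS parenchyma 30 of 65 members rose and 1 fell against PBS AIR, where 17.7% of all genes rose and 18.2% fell, and the median log2FC was 0.39 against 0.00. Cfap52 rose most, from 4.44, 5.75 and 7.96 CPM to 9.84, 12.2 and 16.7 CPM (1.08 ± 0.22, adjusted p = 3.8e-05), with no overlap. Cfap126, Cfap77 and Drc7 also separated completely, and 5.16% of all genes did so upwards. Foxj1 was 54.2, 73.2 and 100.03 CPM (0.73 ± 0.15, adjusted p = 6.3e-05), above every PBS AIR library in 9 of 10. The gene that fell was Tppp3, at 240.6, 280.5 and 496.3 CPM (-0.45 ± 0.11, adjusted p = 0.00062).

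By role, 7 of 9 radial spoke genes and 4 of 5 nexin link and ruler genes rose with smoke in the parenchyma, while the outer and inner arm heavy chains did not pass. Their log2FC values ran from -0.70 for Dnah17 to 0.40 for Dnah6. Smoke also moved other epithelial lists there, as 7 of 10 club cell genes and 5 of 10 alveolar type II genes rose. Among other cilium genes, 13 of 26 further motile cilium genes and 12 of 14 further ciliated cell genes rose. The part of these lists was not tested.

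In PBS CS airways 12 members fell and none rose, where 6.03% of all genes fell and 7.66% rose, with a median log2FC of -0.24. At an unadjusted p under 0.05 by limma, edgeR and DESeq2, 28, 22 and 23 fell and none rose. Tekt2 fell most (-0.63 ± 0.10, adjusted p = 6.6e-07), then Cfap74 (-0.51 ± 0.14) and Dnah5 (-0.50 ± 0.18). With sample quality weights 19 fell, and with airway libraries fitted alone 7 did. The effect of smoke differed between tissues for 31 members, all lower in the airway, where 3.04% of all genes were lower and 0.685% higher. The number of members was 15 to 19 under a stricter filter, under no filter and with all libraries in 1 fit.

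With HDM and smoke together, members were lower in airways and mostly higher in parenchyma. In HDM CS airways 60 members fell and none rose against PBS AIR (23.8% and 25.2% of all genes), with a median of -0.70. At an unadjusted p under 0.05 by limma, edgeR and DESeq2, 60, 60 and 61 fell and none rose. Dnali1, Tekt2 and Tppp3 separated completely, and 2.56% of all genes did so downwards. In HDM CS parenchyma 39 rose and 4 fell (25.4% and 22% of all genes), with a median of 0.55, and 12 members had all HDM CS libraries above all PBS AIR libraries, where 9.19% of all genes did. Cfap52 was 11.9, 14.4 and 20.4 CPM (1.35 ± 0.22, adjusted p = 6.4e-08) and Foxj1 67.1, 78.1 and 105.4 CPM (0.84 ± 0.16, adjusted p = 1.8e-06), and both separated from controls. The 4 that fell were Tppp3 (-0.81 ± 0.11), Dnah17 (-0.75 ± 0.31), Tekt5 (-0.52 ± 0.20) and Dnal1 (-0.31 ± 0.11). Both comparisons share their controls with those of HDM and of smoke alone.

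The interaction of HDM and smoke, the HDM log2FC under smoke less that under air, was higher in the airway for 16 members, where 7.72% of all genes were higher and 11.4% lower. Among the members that passed, Cfap161 had the largest value (0.80 ± 0.19, adjusted p = 0.00092), and Tekt2 (0.72) and Tppp3 (0.54) were among the rest. By DESeq2 5 members passed and by edgeR 4. In the parenchyma 7 members passed, 2 higher and 5 lower, where 17.3% and 18.7% of all genes did. Tekt5 (0.72) and Tppp3 (0.71) were higher, and Dnaaf3 (-0.76), Drc7 (-0.66), Foxj1 (-0.59), Cfap126 (-0.58) and Dnaaf2 (-0.35) lower. Without X90, 3 members passed there, and by edgeR and by DESeq2 13 did.

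Few members passed for dexamethasone in the airways. Summed levels had medians of 3626 CPM in PBS AIR and 3270 CPM in PBS AIR DEX, and of 2138 CPM in HDM AIR and 1904 CPM in HDM AIR DEX. In HDM AIR airways 1 member passed, Tppp3, which rose (0.33 ± 0.11, adjusted p = 0.015), where 28.6% of all genes changed in either direction. With sample quality weights Tppp3 did not pass (0.22, limma adjusted p = 0.077), and 3 other members fell. In PBS AIR airways Cfap100 (-0.36) and Cfap43 (-0.29) fell, where 14.9% of all genes changed. In PBS CS airways Dnah8 fell by limma (-0.60), where 11.3% of all genes changed, and edgeR and DESeq2 called 0 members there, while with sample quality weights 2 were higher and 1 lower. In HDM CS airways 0 members passed by limma, edgeR or DESeq2, with 1, 0 and 2 at an unadjusted p under 0.05, where 9.3% of all genes changed.

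In the parenchyma of HDM AIR mice, DEX raised 6 members, where 28.5% of all genes changed. They were Tppp3 (0.58, adjusted p = 3.4e-06), Cfap161 (0.54), Cfap221 (0.53), Cfap65 (0.45), Cfap69 (0.44) and Cfap20 (0.21). Without X90 among the controls 15 rose. In PBS AIR parenchyma Cfap73 (0.65), Cfap300 (0.45) and Dnali1 (0.44) rose and Dnah8 fell (-0.83, adjusted p = 0.0014), where 22.6% of all genes changed, and edgeR and DESeq2 called 15 and 16 members. In PBS CS parenchyma Dnah8 fell (-0.70), where 16.9% of all genes changed. In HDM CS parenchyma Dnah8 fell (-0.62) and Tppp3 rose (0.32), where 7.86% did.

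**Figure D4:**
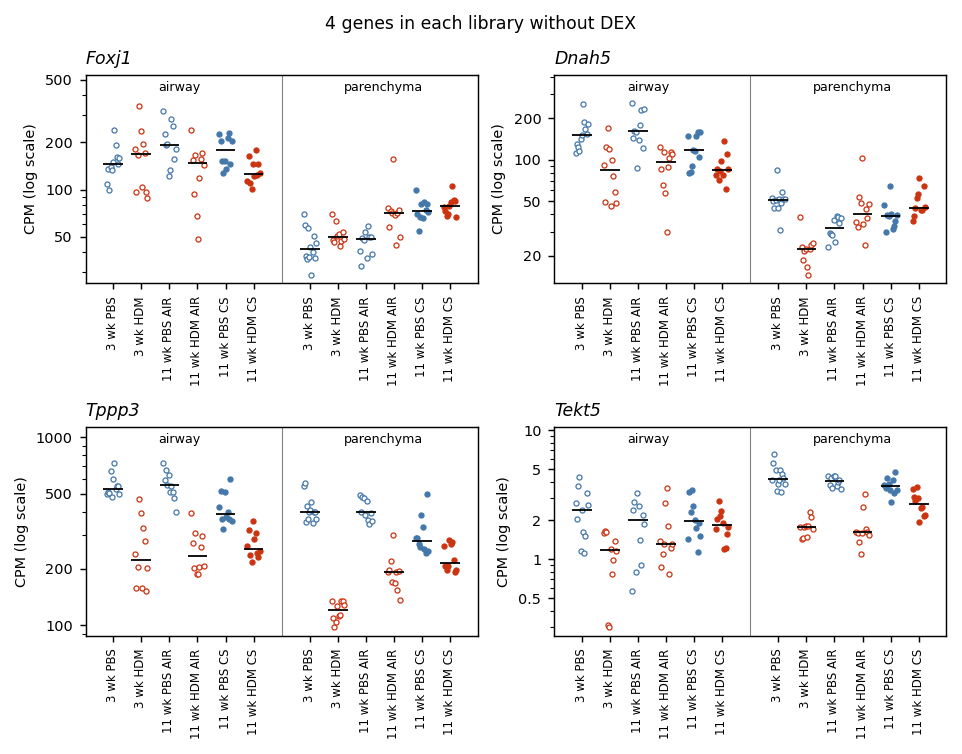
CPM on a log axis of Foxj1, Dnah5, Tppp3 and Tekt5 in each library (points) of the 12 groups without DEX, with a line for the group median. Foxj1 and Dnah5 are higher in airways than in parenchyma, and the Foxj1 medians of the 11 week parenchyma are higher with HDM or smoke (70.5 and 73.2 CPM against 48.5 CPM), whereas Tppp3 and Tekt5 fall with HDM in the parenchyma at both times.

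Tppp3 and Tekt5 went lower in the parenchyma with HDM at both times. Tppp3 fell in airways from 480.8, 531.8 and 732.7 CPM to 152.3, 222.3 and 468.5 CPM at 3 weeks (-1.23 ± 0.15, adjusted p = 1.3e-09) and from 401.6, 554.1 and 731.8 CPM to 186.6, 232.5 and 393.3 CPM at 11 weeks (adjusted p = 2.2e-17). In the 11 week parenchyma it went from 343.1, 397.6 and 495.2 CPM to 135.6, 190.8 and 300.4 CPM, with no overlap, and its share of the summed level from a median of 30.96% to 15.58%. Tekt5 in parenchyma was 3.35, 4.20 and 6.51 CPM in PBS and 1.45, 1.78 and 2.35 CPM in HDM libraries at 3 weeks, and 3.48, 4.06 and 4.42 CPM and 1.10, 1.62 and 3.18 CPM at 11 weeks, without overlap at either time. Tppp3 and Tekt5 were the 2 members that separated downwards in the 11 week parenchyma, where 11.1% of all genes did. In airways Tekt5 fell at 3 weeks (-1.21 ± 0.25, adjusted p = 5.2e-05) and had a log2FC of -0.16 ± 0.25 at 11 weeks.

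Cfap97 varied little. Its medians ran from 30.97 to 37.74 CPM over the 12 groups without DEX, and its log2FC values under HDM were 0.04 and -0.07 in airways and -0.17 and -0.14 in parenchyma, the last pair past the threshold at adjusted p = 0.0021 and 0.015.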

How the data were processed

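Lungs were dissected into airways and parenchyma and RNA was sequenced in 203 libraries. The authors deposited 1 table of estimated counts per gene. Per the labels, bcl2fastq 2.20.0.422, STAR 2.5.1b, RSEM 1.2.31 and kallisto 0.44.0 were used with mm10, and which tool made the table, and the strand setting, is not given in the sources used here. Of the values above 0, 20.3% were not whole, and all were rounded. Identifiers were matched to names without their version (42462 of 43346, unmatched ones holding 0.117% of counts). Genes needed the CPM equivalent of 10 counts in at least 9 libraries. A fit of 43 libraries tested 17381 genes at 3 weeks, a fit of 160 libraries 18250 genes at 11 weeks, and a fit of all 203 libraries 18528 genes for differences between times. Each used 1 mean per group, TMM, limma-voom and Benjamini-Hochberg adjustment (R 4.3.3, edgeR 4.0.16, limma 3.58.1, DESeq2 1.42.0, Python 3.11.15, numpy 2.4.6, pandas 2.3.3). The method was tried on counts simulated for the 3 week airway groups only. The larger fits and the differences between effects were not simulated. Mean log2 levels used log2(CPM + 0.1). All-gene medians differed from 0 most in the 3 week parenchyma, at -0.13.

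The members and lists were chosen with earlier results of these data known. Genes are named by a rule: a set of structural genes and Foxj1, the 5 largest rises and falls past the threshold, members against the median, and members with an airway log2FC under 1. Other genes named beside it, and list examples, were chosen after their values were seen. No libraries were duplicates. Overlapping genes touched 33 members on the other strand and 9 on the same strand, and Rsph3a and Rsph3b are near-identical copies. Results were recomputed with DESeq2, with edgeR (quasi-likelihood), with the size factors of DESeq2 in limma-voom, with stricter or no filtering, with all libraries in 1 fit, 1 tissue at a time, sample quality weights, and without libraries that stand apart.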

Additional observations from a re-analysis of the deposited data

Results flagged for a closer look

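In 72 tests of the highest and lowest library of a group, 3 values lay further from the rest than Dixon's limit for their group size, and chance flags about 1 in 20 groups. They were the summed level of X4 in the 3 week HDM parenchyma (1153 CPM), and the summed level (2412 CPM) and mean log2 level (4.316) of X90 in the 11 week HDM AIR parenchyma.

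Tests of a difference between effects passed for 4 members in HDM between tissues at 3 weeks and 59 at 11 weeks, and for 31 in smoke between tissues. They passed for 16 members in the interaction of HDM and smoke in airways and 7 in parenchyma, and for 21 members in HDM between times in airways and 51 in parenchyma.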

How the results depend on the processing

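Of 231 alternative counts of members, 56 moved by over 1.5 times, 2 turned direction and the others did neither; of 14867 gene values, 14088 kept their side of the threshold, 353 passed only under the alternative, 426 only as reported, and no called value reversed. Counts that moved follow, and the cause was not tested. With a CPM of at least 10, 2 members passed in the HDM tissue difference at 3 weeks, 15 in the smoke tissue difference, 3 for DEX in HDM AIR parenchyma and 2 in PBS AIR parenchyma. By DESeq2, 5 passed in the airway interaction and 13 in the parenchyma interaction, 16 for DEX in PBS AIR parenchyma, 1 in PBS AIR airways and 0 in PBS CS airways. By edgeR these were 4, 13, 15, 1 and 0, with 1 for DEX in HDM CS parenchyma and 39 for HDM AIR parenchyma. With all libraries in 1 fit, 2 passed in the HDM tissue difference at 3 weeks, 17 in the smoke tissue difference, and for DEX 1 in HDM CS parenchyma, 2 in PBS AIR parenchyma, 1 in PBS AIR airways and 2 in HDM AIR airways. With 1 tissue only, 4 and 13 passed in the airway and parenchyma interactions, 7 for smoke in airways, 10 between times in airways, and for DEX 16 in PBS AIR and 13 in HDM AIR parenchyma and 0 in PBS AIR and PBS CS airways. With no filter, 9 and 3 passed in the interactions, 19 in the smoke and 2 in the 3 week HDM tissue difference, and for DEX 3 in HDM AIR, 2 in PBS AIR and 0 in HDM CS parenchyma and 1 in PBS AIR airways. With quality weights, 19 passed for smoke in airways, 7 in the airway interaction and 7 between times in airways, and for DEX 13 in HDM AIR, 22 in PBS AIR and 2 in PBS CS parenchyma, 0 in PBS AIR and 1 in HDM CS airways, and, turned in direction, 3 in HDM AIR airways (all lower) and 3 in PBS CS airways (2 higher). Leaving out X32, X63, X81 and X90, together or alone, was chosen after seeing the data. Together, 15 passed for HDM AIR parenchyma, 3 in the parenchyma interaction, 12 between times in airways, and for DEX 13 in HDM AIR parenchyma and 2 in HDM AIR airways. Alone, counts were 49 to 51 for HDM in 3 week airways, 2 to 4 for the 3 week tissue difference, 15 for HDM AIR parenchyma, 3 for its interaction, 5 to 15 for DEX in HDM AIR parenchyma, 10 to 19 between times in airways and 42 in parenchyma. No paired analysis was possible because library codes are unique and shared by no groups. Low counts limit Dnah17, Tekt3, Cfap73 and Tekt5, with medians of 6, 41, 47 and 72 counts over all libraries.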
